A study of Homo sapiens with 5 samples.

Results

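The globin genes of the human alpha and beta clusters were examined in TF-1 cells with and without *MTSS1*. The rule named 10 genes, *HBA1*, *HBA2*, *HBZ*, *HBM* and *HBQ1* of the alpha cluster and *HBB*, *HBD*, *HBE1*, *HBG1* and *HBG2* of the beta cluster. Of these, 9 had a row among the 27328 Ensembl genes of the count table and 8 passed the filter on low counts. *HBE1*, the embryonic epsilon globin gene, was not analysed here, and *HBM* was too low to be tested.

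TF-1 is a human acute myeloid leukemia cell line with erythroid features that depends on GM-CSF and was cultured with it. All cells, controls included, had been transduced with a lentivirus carrying Cas9, GFP and an sgRNA, sorted for GFP, and grown from single cells. In the 2 control libraries (sgCtrl pools 1 and 2) the sgRNA was directed against *Renilla luciferase*. The 3 *MTSS1* knockout libraries each had an sgRNA of their own, sgMTSS1_1, sgMTSS1_2 or sgMTSS1_3, and loss of the protein had been checked by immunoblot. A library is a pool of 4 clones, so that differences between pools and between clones cannot be told apart. Values are given in this order throughout, control pools 1 and 2 first and then the knockout pools by sgRNA number.

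Hemoglobin is a tetramer of alpha-like and beta-like chains, each holding a heme. Both clusters are switched during development. *HBZ* and *HBE1* are embryonic, *HBG1* and *HBG2* (gamma) are fetal, and *HBB* (beta) and *HBD* (delta) serve after birth, whereas *HBA1* and *HBA2* encode the same alpha chain from fetal life onwards. *HBM* and *HBQ1* (mu and theta) are minor genes of the alpha cluster. Red cell precursors transcribe these genes under factors such as GATA1 and KLF1, and erythroleukemia lines often make embryonic and fetal globin.

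On GRCh38 the alpha cluster lies on the plus strand of chromosome 16, with *HBZ* (ENSG00000130656) from 142728 to 154503, *HBM* (ENSG00000206177) from 153892 to 166764, *HBA2* (ENSG00000188536) from 172876 to 173710, *HBA1* (ENSG00000206172) from 176680 to 177522 and *HBQ1* (ENSG00000086506) from 180459 to 181179. The beta cluster lies on the minus strand of chromosome 11, with *HBB* (ENSG00000244734) from 5225464 to 5229395, *HBD* (ENSG00000223609) from 5232678 to 5243657, *HBG1* (ENSG00000213934) from 5248269 to 5249857 and *HBG2* (ENSG00000196565) from 5253188 to 5505605. On the same strand, the annotated *HBZ* overlaps *HBM*, *HBD* overlaps the pseudogene *HBBP1*, and *HBG2* extends over *HBE1* and several olfactory receptor genes. *HBG1* and *HBG2* both overlap an unnamed gene, ENSG00000284931, on the same strand. *HBA1* and *HBA2* each overlap an unnamed gene on the opposite strand. Counts of all these genes are uncertain where reads fall in shared parts.

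RefSeq promoters, from 250 bases before to 50 bases after the start site, were at hand for 2 of the 10 genes. Both are shown because they were at hand, and not for their levels. *HBD* had the most positive difference between the groups among the tested members, and *HBM* was almost silent. Capitals mark matches to the motif CCAAT, the motif CACCC, the GATA factor motif AGATAA, and CATAAA or else TATAAA as boxes of the TATA type. Both strands were searched, and no matches overlapped. On the other strand, AGATAA is spelled as TTATCT while CACCC is spelled as GGGTG.

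HBD (GRCh38.p14, chr11:5234434-5234733, minus strand): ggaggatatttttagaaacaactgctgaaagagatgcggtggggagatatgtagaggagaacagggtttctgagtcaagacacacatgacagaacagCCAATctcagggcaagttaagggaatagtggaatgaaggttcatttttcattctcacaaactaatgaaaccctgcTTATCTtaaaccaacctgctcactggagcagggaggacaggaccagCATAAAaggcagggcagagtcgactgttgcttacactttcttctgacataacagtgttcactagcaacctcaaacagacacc

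HBM (GRCh38.p14, chr16:165728-166027, plus strand): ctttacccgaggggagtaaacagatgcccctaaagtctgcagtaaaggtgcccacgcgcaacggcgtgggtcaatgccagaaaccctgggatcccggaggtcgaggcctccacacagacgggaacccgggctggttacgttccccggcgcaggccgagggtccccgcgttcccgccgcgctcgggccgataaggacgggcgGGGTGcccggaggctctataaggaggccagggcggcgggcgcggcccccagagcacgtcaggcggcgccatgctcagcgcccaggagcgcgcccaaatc

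The *HBD* window held CCAAT beginning at −153 from the start site, which occurs in 34.6% of 34796 RefSeq promoters of this length. The GATA factor motif was present at −78 on the opposite strand (10.4% of promoters) and CATAAA at −32 (10.6%). The motif CACCC was not among its letters. In the *HBM* window CACCC, present in 59.8% of promoters, was found at −49 on the opposite strand, and none of the other motifs was.

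Total counts were 2849979 and 3408827 in the control libraries and 5442639 to 8854899 in the knockout libraries, so that every knockout library was deeper. In single-end sequencing from the 3′ end of the mRNA, reads number the molecules and not their length, and levels are therefore given as CPM (TMM-scaled counts relative to library size) with no correction for length. The smallest level that 3 counts can show was 0.389 to 0.938 CPM. The mRNA of *MTSS1* did not tell the groups apart, with 204 and 87.9 CPM in control and 104, 139 and 49.9 CPM in knockout pools. All 6 genes of a TF-1 progenitor list (*CD34*, *KIT*, *CSF2RA*, *CSF2RB*, *IL3RA*, *CBFA2T3*) were detected, with a summed level of 271 to 310 CPM in control and 378 to 571 CPM in knockout pools. Summed levels in control and knockout pools were 4.47 to 7.50 and 3.97 to 6.62 CPM for 4 measured genes of a granulocyte and monocyte list of 7, 0.313 to 2.09 and 0.722 to 5.92 CPM for 3 of 4 T cell genes, 19.4 to 19.7 and 9.21 to 12.3 CPM for 3 of 4 B cell genes, 96.6 to 139 and 213 to 254 CPM for 3 of 5 megakaryocyte genes, and 54.1 to 111 and 135 to 139 CPM for 4 of 5 fibroblast and epithelial genes. The last sum was almost all *KRT18*, and *COL1A1*, *COL1A2* and *EPCAM* were below 1 CPM. The megakaryocyte sum was mostly *ITGA2B*, and *PF4* and *PPBP* were not analysed here. In the B cell list *CD79A* and *CD79B* led and *MS4A1* was not analysed here. The part of these markers in the results was not tested.

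Reads that mapped to several places had been removed by the authors, which bears on near-identical copies. Of the 251 windows of 50 bases in the last 300 bases of the *HBA1* mRNA, 97 matched the genome at a single place, 107 also matched *HBA2*, and 47 spanned an exon junction. Of the windows lying in the last 150 bases, 97 of 101 were unique for *HBA1*, 96 for *HBA2*, and 100 each for *HBG1* and *HBG2*. For *HBZ*, 60 of these 101 windows were unique, and 94 of all 251 also matched the pseudogene *HBZP1*. Every window in the last 150 bases of *HBB*, *HBD*, *HBM* and *HBQ1* was unique. The members of a pair can thus be told apart by reads close to the poly(A) tail, whereas reads further upstream were lost to an unknown extent.

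Globin mRNA made up 0.459% and 0.726% of all counts in control and 0.236%, 0.190% and 0.331% in knockout pools. All knockout pools were thus below both control pools. Most of it was alpha-like in every pool, with a share of 76.5% to 91.1%. In a bulk sample, fewer globin-making cells and less globin mRNA per cell cannot be told apart.

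*HBA2* was the most abundant globin mRNA in every pool. By mean level in control pools it was followed by *HBA1*, *HBG2* and *HBZ*, and then by *HBQ1*, *HBB*, *HBG1* and *HBD*. The ranges of neighbours in this order overlapped except for *HBA2* above *HBA1* and *HBZ* above *HBQ1*. Within each control pool *HBG2* was also above *HBZ*. In knockout pools the order was *HBA2*, *HBA1*, *HBG2*, *HBD*, *HBB*, *HBZ*, *HBG1* and *HBQ1*. After *HBA2*, which did not overlap any other globin gene, the ranges of all neighbours in the knockout order overlapped. Within each knockout pool, however, *HBA1* was above *HBG2* and *HBZ* was above *HBG1*. The remaining neighbours changed order between pools.

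**Figure D1:**
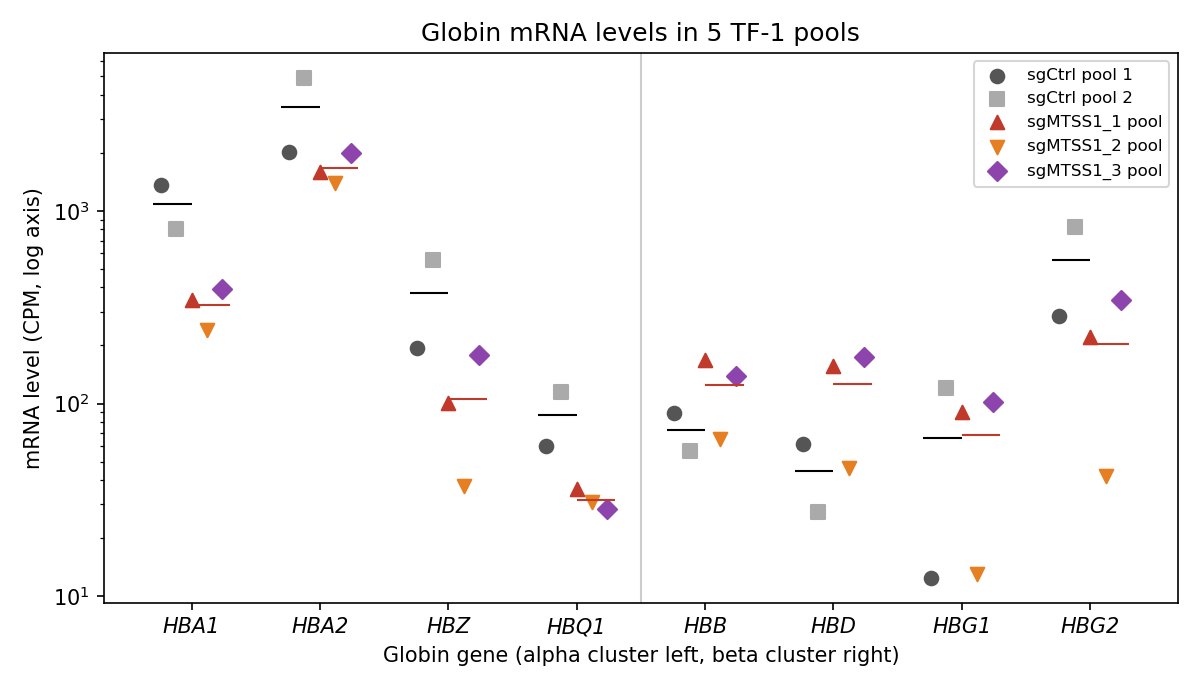
mRNA levels (CPM, log axis) of the 8 tested globin genes in each pool, with the mean of the control pools as a black and that of the knockout pools as a red line. For the 4 alpha-cluster genes every knockout pool lies below both control pools, whereas the groups overlap for the 4 beta-cluster genes.

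A gene was called where its adjusted p was under 0.05 and its log2 difference (the log2-fold change, knockout minus control) was beyond 1 in either direction. By this rule 2 of the 8 tested globin genes were differentially expressed, *HBA1* and *HBQ1*, and both were lower in the knockout. Among all 14391 tested genes, 5.18% met these thresholds and 1.01% were lower. The median log2 difference of the 8 genes was −1.25, against −0.03 for all tested genes. For 4 of the 8, *HBA1*, *HBA2*, *HBZ* and *HBQ1*, every knockout pool lay below both control pools, as it did for 19.2% of all tested genes. No tested globin gene had all 3 knockout pools higher than both control pools, a pattern held by 22.2% of all tested genes.

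*HBA1*, which encodes the alpha chain, was at 1360 and 803 CPM in control and at 343, 241 and 393 CPM in knockout pools. The groups were apart, with a gap between 393 and 803 CPM. The control mean was 1082 ± 394 CPM (SD, n = 2) and the knockout mean was 326 ± 77.5 CPM (SD, n = 3). It was 3.32-fold lower in the knockout (log2 difference −1.73, SE 0.37, adjusted p = 0.0300, Benjamini-Hochberg over all tested genes, in edgeR's quasi-likelihood fit).

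*HBA2*, which encodes the same protein, was at 2026 and 4880 CPM in control and at 1589, 1395 and 1986 CPM in knockout pools. The highest knockout pool came close to control pool 1, and the control pools differed 2.41-fold. Its log2 difference was −1.06 (SE 0.44) and did not pass, with an adjusted p of 0.181 from the same edgeR test. Leaving out control pool 1 moved the log2 difference to −1.55 (edgeR adjusted p = 0.0280) and leaving out control pool 2 moved it to −0.26.

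The copies took different shares in control pool 1. *HBA1* made up 40.2% (exact 95% binomial interval 39.2 to 41.1) of the counts of both alpha genes there, 14.1% (13.6 to 14.6) in control pool 2, and 17.8%, 14.7% and 16.5% in the knockout pools. Control pool 1 stood apart from the other 4 libraries, and the shares of control pool 2 and the sgMTSS1_2 pool had overlapping intervals. With the counts of both genes summed, control pools were at 3386 and 5684 CPM and knockout pools at 1933, 1635 and 2379 CPM, a log2 difference of −1.19 (SE 0.39, edgeR adjusted p = 0.107). The summed alpha level was lower in every knockout pool but did not pass the threshold. These intervals include counting error alone and not the spread between pools. No molecular identifiers mark which reads are copies of 1 molecule, so that the intervals may be too narrow even for counting error.

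*HBQ1*, theta globin, was at 60.03 and 115 CPM in control and at 35.9, 30.7 and 28.4 CPM in knockout pools. The knockout pools were close together, with a mean of 31.7 ± 3.88 CPM (SD, n = 3), and the control pools differed 1.92-fold. It was 2.76-fold lower in the knockout (log2 difference −1.47, SE 0.34, edgeR adjusted p = 0.0410). Both calls rested on all 3 knockout pools. Without each knockout pool in turn, in the order given, the edgeR adjusted p-values were 0.102, 0.118 and 0.0997 for *HBA1* and 0.107, 0.132 and 0.166 for *HBQ1*. The log2 differences were then −1.78, −1.50 and −1.84 for *HBA1* and −1.58, −1.42 and −1.37 for *HBQ1*. Without control pool 2, *HBQ1* had a log2 difference of −0.89 (edgeR adjusted p = 0.124), and with an offset for GC content it was −1.30 (edgeR adjusted p = 0.0571).

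*HBZ*, the embryonic zeta chain, was at 195 and 553 CPM in control and at 100, 37.4 and 177 CPM in knockout pools. The sgMTSS1_3 pool was just below control pool 1. Its log2 difference of −1.83 was the most negative of the 8, but pools within a group differed up to 4.75-fold, and it did not pass (SE 0.60, edgeR adjusted p = 0.107). It passed with DESeq2 (adjusted p = 0.0279) and where low counts were not filtered (log2 difference −1.68, edgeR adjusted p = 0.0317). The log2 difference was −2.38 without control pool 1, −0.87 without control pool 2 and −2.42 without the sgMTSS1_3 pool. *HBM* had 0 counts in both control pools and 0, 1 and 2 counts in the knockout pools, all under the floor of 3 counts.

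Among fetal genes, *HBG2* was at 286 and 819 CPM in control and at 222, 42.1 and 344 CPM in knockout pools. The sgMTSS1_2 pool was lowest by far, and the sgMTSS1_3 pool was above control pool 1. Its log2 difference was −1.45 (SE 0.71, edgeR adjusted p = 0.257) and moved to −0.47 without control pool 2 and to −2.05 without the sgMTSS1_3 pool.

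*HBG1* was at 12.5 and 120 CPM in control and at 90.8, 13.0 and 101 CPM in knockout pools. Control pools differed 9.58-fold and knockout pools 7.80-fold, so that control pool 1 and the sgMTSS1_2 pool resembled each other and not their groups. The log2 difference was 0.05 (SE 0.89, edgeR adjusted p = 0.981), and turned to −0.79 without control pool 1 and to 2.48 without control pool 2.

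Of the adult genes, *HBB* was at 89.7 and 56.6 CPM in control and at 167, 65.7 and 140 CPM in knockout pools. The sgMTSS1_2 pool lay between the control pools. Its log2 difference was 0.76 (SE 0.42, edgeR adjusted p = 0.316). *HBD*, the minor adult chain, was at 61.9 and 27.4 CPM in control and at 156, 46.6 and 174 CPM in knockout pools, and again the sgMTSS1_2 pool lay between the control pools. Its log2 difference was 1.49 (SE 0.57, edgeR adjusted p = 0.156). It was 2.21 without control pool 1 and 1.05 without control pool 2, and neither passed. *HBD* passed only where low counts were not filtered (log2 difference 1.64, edgeR adjusted p = 0.0388).

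**Figure D2:**
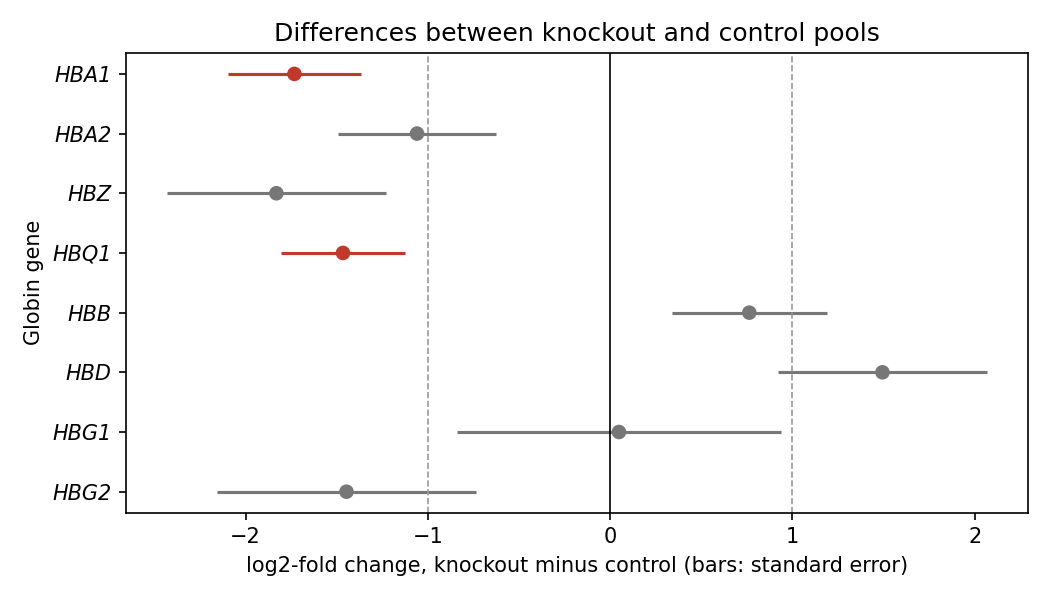
log2 difference between knockout and control pools with its standard error for the 8 tested globin genes, with dashed lines at −1 and 1. *HBA1* and *HBQ1*, in red, passed both thresholds at −1.73 and −1.47, and the beta-cluster genes range from −1.45 (*HBG2*) to 1.49 (*HBD*).

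The sgMTSS1_2 pool had the lowest knockout value for 7 of the 8 tested genes, the exception being *HBQ1*. Control pool 2 was above control pool 1 for 5 genes and below it for 3, *HBA1*, *HBB* and *HBD*.

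The clusters were also compared as sums of counts, in 5 exact permutation tests over the libraries. With 2 against 3 libraries there are 10 splits, and the smallest two-sided p such a test can give is 0.2. The alpha-like sum was 3642 and 6351 CPM in control and 2069, 1704 and 2585 CPM in knockout pools, with all knockout pools lower, a mean difference of −1.20 on the log2 scale, and p = 0.2 from the exact permutation test (0.5 adjusted over the 5 tests). The beta-like sum was 450 and 1023 CPM in control and 636, 167 and 759 CPM in knockout pools, which overlapped (−0.65 on the log2 scale, exact permutation p = 0.8, adjusted 0.8). It turned to 0.08 without the sgMTSS1_2 pool.

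Within a library, counts need no scaling against other libraries. Alpha-like counts exceeded beta-like counts 8.09-fold and 6.21-fold in control and 3.25-fold, 10.2-fold and 3.40-fold in knockout pools. The sgMTSS1_2 pool had the highest ratio of all 5, and the groups overlapped (−0.55 on the log2 scale, exact permutation p = 0.6, adjusted 0.75). With *HBA1*, *HBA2*, *HBG1* and *HBG2* left out, the ratio was that of *HBZ*, *HBQ1* and *HBM* to *HBB* and *HBD*. This left out most alpha-like counts in every pool and 32.9% to 91.8% of beta-like counts, and is not a ratio of the whole clusters. Its log2 difference was −2.73, with every knockout pool below both control pools. The exact permutation test gave p = 0.2, the smallest it can give. *HBZ* made up 5.36% and 8.70% of alpha-like counts in control and 4.85%, 2.19% and 6.87% in knockout pools, which overlapped (exact permutation p = 0.4, adjusted 0.667).

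Gamma mRNA, *HBG1* and *HBG2* together, took 66.3% (exact 95% binomial interval 63.8 to 68.8) and 91.8% (90.8 to 92.7) of beta-like counts in control pools. It took 49.1% (47.7 to 50.5), 32.9% (29.9 to 36.0) and 58.7% (57.2 to 60.2) in knockout pools. Every knockout pool was lower than both control pools, with p = 0.2 from the exact permutation test, the smallest it can give (0.5 adjusted). *HBD* took 13.8% and 2.68% of beta-like counts in control and 24.6%, 27.8% and 22.9% in knockout pools. *HBB* took 19.9% and 5.53% in control and 26.3%, 39.3% and 18.4% in knockout pools, and here the groups overlapped. Counts of *HBE1*, which would add to the embryonic and fetal side, were not analysed here.

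**Figure D3:**
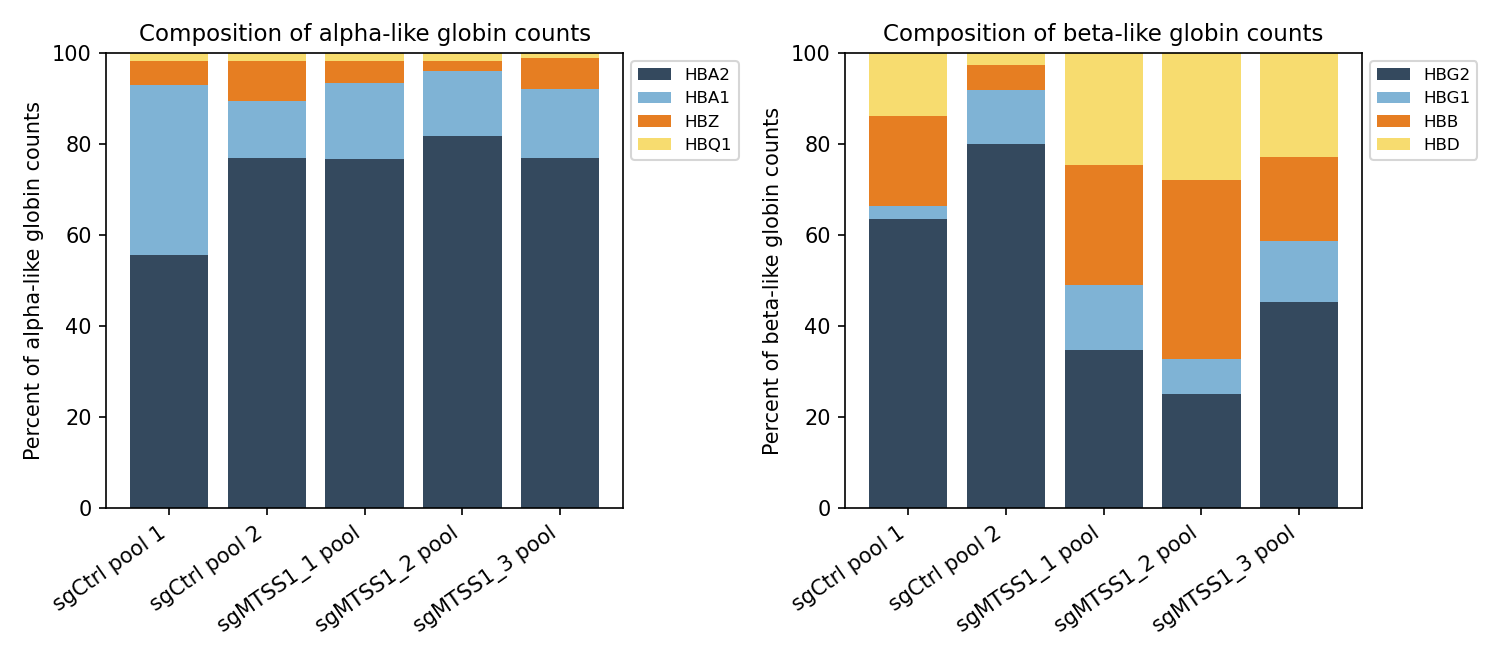
Percent of alpha-like (left) and beta-like (right) globin counts taken by each gene in each pool. *HBA1* is prominent in control pool 1 at 37.3% of alpha-like counts, and *HBG2* takes 63.5% and 80.1% of beta-like counts in control against 25.1% to 45.3% in knockout pools.

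The gamma copies differed in their balance as well. *HBG1* made up 4.19% (exact 95% binomial interval 3.01 to 5.66) and 12.8% (11.6 to 13.97) of gamma counts in control pools, and 29.0% (27.2 to 30.9), 23.6% (19.0 to 28.8) and 22.8% (21.1 to 24.4) in knockout pools. The knockout pools lay above both control pools. This share was chosen after its values were seen and was not tested. The pseudogene *HBBP1*, which lies within the annotated span of *HBD* on the same strand, was at 32.8 and 328 CPM in control and at 363, 110 and 294 CPM in knockout pools, and was likewise singled out after its values were seen. Like *HBG1*, it was lowest in control pool 1, and the groups overlapped (log2 difference 0.50, edgeR adjusted p = 0.748). Without control pool 1 it was at −0.35, and without control pool 2 at 2.99 (edgeR adjusted p = 0.0346).

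Over the 5 libraries, the genes whose levels lay closest to those of the most abundant member of each cluster were found by the root mean square difference of log2 CPM, centred on each gene's mean, among 8709 genes with a mean count of at least 50. For *HBG2* these were *CD36* (0.36), a scavenger receptor present on erythroid progenitors, *AHSP* (0.51), the chaperone of free alpha chains, and *ADD2* (0.63), the beta-adducin of the red cell membrane skeleton. *CD36* was at 13.1 and 62.6 CPM in control and at 22.6, 2.71 and 26.3 CPM in knockout pools. *AHSP* was at 17.2 and 17.3 CPM in control and at 8.69, 1.62 and 10.6 CPM in knockout pools. *ADD2* was at 21.9 and 79.6 CPM in control and at 17.9, 9.75 and 57.9 CPM in knockout pools. All were lowest in the sgMTSS1_2 pool, as *HBG2* was. For *HBA2* the closest genes were *C2orf88* (0.14), *PHKG2* (0.14) and *COA8* (0.15), which were highest in control pool 2. They were chosen for this likeness, which is a description over 5 libraries and not a test.

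**Figure D4:**
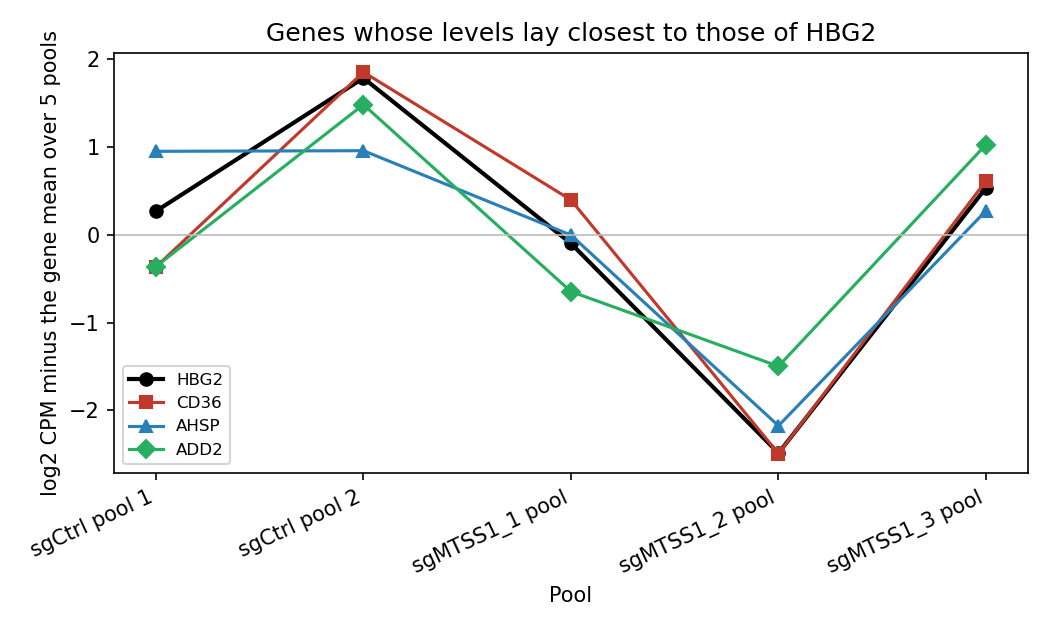
log2 CPM minus the gene's mean over the 5 pools for *HBG2* and the 3 genes closest to it, with lines only to guide the eye. All 4 are lowest in the sgMTSS1_2 pool, and *AHSP* departs from *HBG2* most visibly in control pools.

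Genes that act with globin were read from the same fit, and each adjusted p below comes from that edgeR fit. Over all the lists below, 3 of 74 tested genes passed, all of them higher. Of all 14391 tested genes, 4.17% were called higher and 5.18% in either direction. Whether any list differed from all genes in its share of calls was not tested. Among 12 heme synthesis genes, 1 was higher and none was lower. The higher gene, *SLC25A38*, which carries glycine into mitochondria for the first step of heme synthesis, was at 14.1 and 12.2 CPM in control and at 93.9, 47.3 and 98.8 CPM in knockout pools, a log2 difference of 2.60 (SE 0.42, adjusted p = 0.0131). The median of the 12 was 0.12. *ALAS2*, the erythroid enzyme of that first step, was at 20.9 and 42.9 CPM in control and at 20.5, 8.12 and 43.3 CPM in knockout pools, so that the groups overlapped and the sgMTSS1_2 pool was lowest.

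Of 9 genes of chain handling and heme turnover, none passed, and the median was −0.48. The lowest p-values belonged to *SLC48A1*, a heme transporter, at −1.09 (adjusted p = 0.0628) and to *AHSP* at −1.29 (adjusted p = 0.227), and for both every knockout pool was below both control pools. *SLC48A1* passed with DESeq2 (adjusted p = 0.0202) and with the GC offset in edgeR (adjusted p = 0.0307). *SLC48A1* overlaps *RAPGEF3* and *HDAC7* on the opposite strand.

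Of 10 tested genes among 11 activators, *MAFG* passed. It encodes a small MAF partner of NFE2 and was at 10.3 and 14.3 CPM in control and at 55.6, 30.9 and 50.6 CPM in knockout pools, a log2 difference of 1.89 (SE 0.38, adjusted p = 0.0259). *MAFG* overlaps *SIRT7* on the same strand. *GATA1* was at 110 and 80.8 CPM in control and at 56.4, 62.6 and 75.2 CPM in knockout pools, lower in each but not past the threshold (log2 difference −0.56, adjusted p = 0.291). *KLF1* was at 138 and 150 CPM in control and at 188, 185 and 254.5 CPM in knockout pools, higher in each but not past it (log2 difference 0.54, adjusted p = 0.317). *GATA1*, *KLF1* and *ALAS2* were named for their roles and not by the rule for listed genes. None of the 17 tested regulators of globin switching passed, and their median was 0.02. The lowest p-values were those of *EHMT1*, a histone methyltransferase, at −0.80 (adjusted p = 0.137), and *HIC2*, a repressor of transcription, at 0.94 (adjusted p = 0.159).

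Of 8 tested genes beside the clusters, *POLR3K*, a subunit of RNA polymerase III at the chromosome 16 end of the alpha cluster's neighbourhood, was at 17.8 and 36.1 CPM in control and at 233, 98.4 and 129 CPM in knockout pools, a log2 difference of 2.51 (SE 0.48, adjusted p = 0.0223). It was at 3.13 without control pool 2. The other 7 did not pass. *CYGB*, cytoglobin, was the single gene of 3 other globins with a tested level and was at 0.94 (adjusted p = 0.475), which became 0.35 without control pool 1 and 2.07 without control pool 2. None of 17 red cell membrane genes passed, with a median of 0.34. *EPB42*, protein 4.2, was at −1.64 (adjusted p = 0.0509) and *EPB41*, protein 4.1, at −0.69 (adjusted p = 0.176), the lowest p-values of that list. *EPB42* passed with DESeq2 (adjusted p = 0.0204), with limma-voom (adjusted p = 0.0490) and with the GC offset in edgeR (adjusted p = 0.0317). In edgeR *EPB42* also passed with upper quartile factors (adjusted p = 0.0450) and with library size alone (adjusted p = 0.0366). The same held with at least 10 counts in every library (edgeR adjusted p = 0.0387). Without the sgMTSS1_1 pool none of the 3 called genes passed, with edgeR adjusted p-values of 0.0612 for *SLC25A38*, 0.0970 for *MAFG* and 0.0746 for *POLR3K*. Their log2 differences were then 2.46, 1.71 and 2.06. Without the sgMTSS1_3 pool *MAFG* had a log2 difference of 1.84 (edgeR adjusted p = 0.0857) and *POLR3K* of 2.64 (edgeR adjusted p = 0.0570). Without control pool 1 *MAFG* had a log2 difference of 1.69 (edgeR adjusted p = 0.0501).

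**Figure D5:**
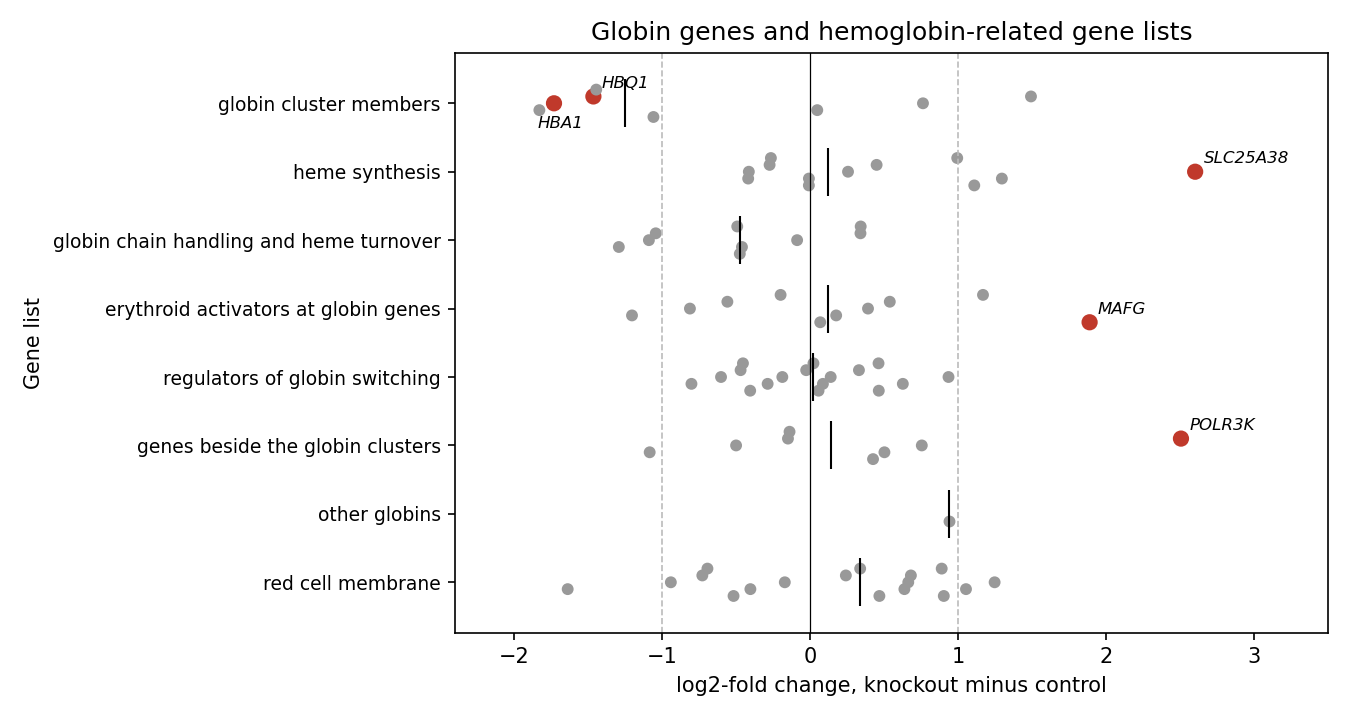
log2 difference between knockout and control pools for each tested gene of the globin clusters and of 7 related lists, with the median of a list as a black bar. Genes past both thresholds are red and named: *HBA1* and *HBQ1* among globins, and *SLC25A38*, *MAFG* and *POLR3K* among the others.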

How the data were processed

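RNA was extracted from pooled clones, and libraries were made with a QuantSeq 3′ mRNA kit and sequenced as single-end reads of 50 bases. Per the labels and the paper's methods, the authors trimmed adapters with BBDuk, used HISAT2 2.1.0 for alignment to GRCh38, and kept uniquely mapped reads by SAMtools 1.10. The deposited values are raw integer counts for each Ensembl gene. The counting program, annotation release, use of strand and treatment of duplicates are not given in the sources used here. A further control pool and a further knockout pool, which the authors excluded as outliers, were not analysed here.

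Libraries were grouped by their labels. The test was edgeR 4.0.16 in R 4.3.3. There, filterByExpr with a minimum count of 10 left 14391 genes, factors were from TMM, the model held the condition alone, and p-values were adjusted by Benjamini-Hochberg over all tested genes. The fit was tested on simulated counts with 1 spread shared by all genes. It called 63% of 200 genes changed 4-fold, and 5 unchanged genes. The standard error of a log2 difference is its size over the root of its F statistic. P-values weigh the difference between groups against the spread between pools of clones within a group. In the knockout this spread also holds differences between sgRNAs. Alternatives were DESeq2 1.42.0, limma-voom (limma 3.58.1), other factors and filters, thinning to the smallest total, summed copies, a GC offset fitted with mgcv 1.9.3, a block for the replicate number, and each library left out. Symbols and positions come from GENCODE release 44, in which 27211 genes of the table have a symbol. Uniqueness is an exact match on either strand of the main hg38 chromosomes.

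Members, lists and tests were chosen with earlier results of these data known. Named genes were all members, *MTSS1*, the genes of each list past the thresholds or otherwise the pair with the lowest p-values, and the 3 genes closest in pattern to *HBA2* and to *HBG2*.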

Additional observations from a re-analysis of the deposited data

How the results depend on the processing

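*HBA1*, *HBA2*, *HBZ*, *HBQ1* and *HBG2* were lower and *HBB* and *HBD* higher in the knockout in all settings run for them. The log2 difference of *HBG1* turned to −0.026 with upper quartile factors, −0.043 with library size alone, −0.023 after thinning and −0.14 with a GC offset, and ranged from −0.79 to 2.48 with 1 library left out. The number of differentially expressed globin genes was 1 with limma-voom, with at least 10 counts in every library, with copies summed and with the GC offset, 4 without a filter, and 0 to 4 with 1 library left out (0 without each knockout pool, 1 without control pool 2, 4 without control pool 1). *HBQ1* had an adjusted p of 0.0505 with limma-voom and 0.0508 in edgeR with at least 10 counts in every library. With 1 library left out, *ALAS2* ranged from −1.13 to 0.22, *HBBP1* from −0.35 to 2.99 and *MTSS1* from −1.04 to 0.16. Over all genes, 745 became 1343 with DESeq2, 1374 without a filter, and 111 (without the sgMTSS1_1 pool) to 1349 (without control pool 1) with 1 library left out. Of the 74 tested genes of the related lists, 3 passed, beside 745 of all 14391 tested genes. With DESeq2 7 of the 74 passed, beside 1343 of all genes. With library size alone 5 did, beside 800, and with the GC offset 6 did, beside 905. With 1 knockout pool left out, 0 to 3 genes of these lists passed. The beta-like sum ranged from −1.23 to 0.076 on the log2 scale with 1 library left out, the latter without the sgMTSS1_2 pool. Without the near-identical copies, only the ratio of *HBZ*, *HBQ1* and *HBM* to *HBB* and *HBD* remained, with a log2 difference of −2.73. No gamma share could then be computed. The median over all genes went from −0.03 to −0.17 with library size alone. Of all calls, 600 were higher and 145 lower, and 597 and 308 with the GC offset. The cause was not tested.

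Replicate numbers 1 and 2 occur in both groups, and nothing says that these pools were handled together. Number 3 occurs in the knockout alone, so that with a block the sgMTSS1_3 pool adds nothing to the difference between groups. The blocked difference rests on the pools numbered 1 and 2, and little is left to estimate the spread. Deviations of same-numbered libraries from their group means had a Pearson's r of 0.20 and 0.11 across genes, which are not independent replicates. With the number as a block, calls over all genes went from 745 to 1094 (894 higher, 200 lower), and 4 globin genes, *HBA1*, *HBQ1*, *HBZ* and *HBG2*, all lower, and 7 genes of the related lists passed. Among these were *AHSP* at −2.02 (edgeR adjusted p = 0.0202), *SLC48A1* (0.0461) and *EPB42* (0.0419). With the block and the GC offset, 836 of all genes, 3 globin genes and 6 genes of the lists passed, and *HBQ1* did not (−1.16, edgeR adjusted p = 0.130). *HBG1* was at −0.23 with the block and −0.41 with both.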
